A study of Homo sapiens with 6 samples.

Results

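The genes described here are those named for the proteins of the mitochondrial ribosome, and were taken as every row of the expression table whose symbol was MRPL or MRPS followed by a number and at most 1 further letter. The rule gave 77 of 18678 genes, 48 named MRPL and 29 named MRPS, spread over 21 chromosomes. It includes MRPS36, now assigned to another complex, and leaves out 6 mitoribosomal proteins that go by other symbols, such as DAP3. Messenger RNA was sequenced with a strand-preserving kit from Cal27, an established human cell line of a tongue squamous cell carcinoma. The other group, Cal27-shGRK2, carries in addition a short hairpin RNA against the receptor kinase GRK2. Both groups grew in the same serum-containing medium and were harvested before confluence, and the titles name 3 libraries of each. The labels do not say whether the Cal27 cells carried a control hairpin, nor how many hairpins or clones stand behind the Cal27-shGRK2 cells. The study's title concerns the epithelial phenotype of these carcinomas, and the comparison asks how Cal27-shGRK2 cells differ from Cal27 cells.

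Mitochondrial ribosomes translate the few proteins encoded by mitochondrial DNA, all of them subunits of the respiratory chain and ATP synthase. Their RNAs come from mitochondrial DNA, but all of their proteins are encoded in the nucleus, made in the cytosol and imported. Some of these proteins have counterparts in bacterial ribosomes and others are found only in mitochondria.

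The Cal27-shGRK2 columns for replicates 0 and 1 held the same value in all 18678 genes, so they were counted as 1 library (called the shared library below), and every test compared 3 libraries of Cal27 with 2 of Cal27-shGRK2. Separate cultures are not named in the labels, and p-values therefore measure only the spread between these libraries, which may be technical. Values were FPKM (mapped fragments scaled to transcript length and to the mapped total) and the depth of each library is unknown. GRK2 (listed as ADRBK1), the target of the hairpin, was at 55.3, 59.4 and 55.8 FPKM in Cal27 and at 17.3 and 16.6 in Cal27-shGRK2 (log2 fold change -1.69 ± 0.06, SE, limma adjusted p = 3.8e-11). All 7 squamous epithelial markers checked reached 1 FPKM, with summed levels of 2430 to 2710 in Cal27 and 1060 to 1090 in Cal27-shGRK2. Of these markers 5 fell (KRT14 by the most, log2 fold change -4.05) and 2 rose, EPCAM (0.45) and CDH1 (0.57). Of other cell types, the endothelial marker CDH5 was at 3.5 to 3.97 and 6.80 to 7.01 FPKM, the macrophage marker CD68 at 0.766 to 1.18 and 3.52 to 4.30, and 4 fibroblast markers summed to 4.35 to 4.71 and 4.38 to 4.46. The part of these markers in the results below was not tested. In bulk RNA, fewer cells of a type and less RNA per cell cannot be told apart.

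In Cal27-shGRK2 cells most mitoribosomal protein genes did not pass the test, and those that did were mostly slightly lower. Of the 77 members, all of which passed the filter of a mean of 1 FPKM, 13 fell, 2 rose and 62 did not pass an adjusted p of 0.05 in limma. That is 19.5% of the members, against 29.6% of all 13377 genes tested, of which 14.6% fell and 15.0% rose. The share that fell was thus near the background, and few members rose. The largest fall was MRPL50 (log2 fold change -0.39), and the only rises were MRPL52 (0.21) and MRPL15 (0.20). The median log2 fold change was -0.08 over the members and -0.005 over all genes tested, and 53 members (68.8%) lay below 0, against 50.9% of all genes.

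**Figure D1:**
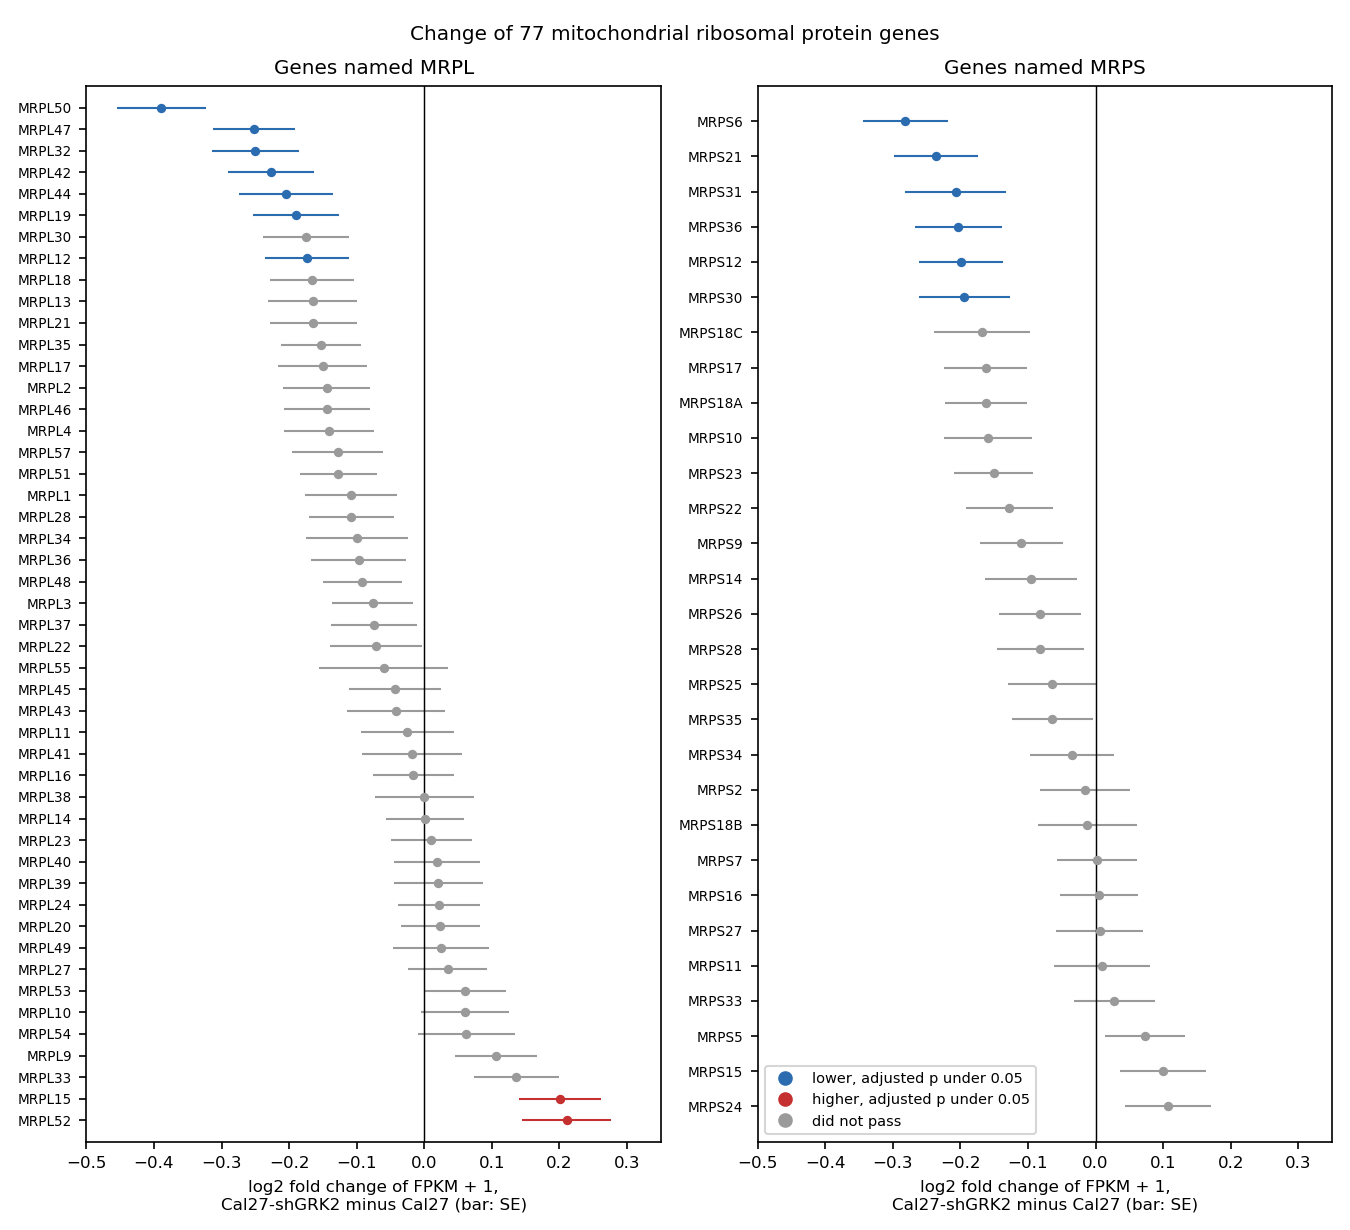
Each point is the log2 fold change of 1 gene (FPKM + 1, Cal27-shGRK2 minus Cal27, x axis) with its standard error as a bar, for the 48 genes named MRPL (left) and the 29 named MRPS (right), coloured by whether the gene passed the threshold. MRPL50 lies furthest left at -0.39 and MRPL52 furthest right at 0.21, and 53 of 77 lie left of 0.

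Differences among the members were small. The median absolute log2 fold change was 0.10 in the members and 0.14 over all genes, and 96.1% of members, against 72.5% of all genes, were under 0.25. The 6127 tested genes within the level range of the members had a median absolute log2 fold change of 0.12, and 31.0% of them were called. The groups' libraries did not overlap in 42 of the 77 members, against 53.3% of all genes. The authors' deposited table marks 1 member as significant, MRPL50 (q = 0.000612), against 15.4% of its genes.

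Regulatory sequence before the start of the gene is shown for 4 members that fell. Only matches to the ZNF143 and ETS letters are marked. Sequences are from RefSeq on GRCh38.p14, 5′ to 3′ on the strand of the gene, and capitals mark a match to a motif. The 232 bases of MRPL50 are chr9:101398619-101398850, the whole interval between its start and that of ZNF189, a zinc finger gene on the other strand. Those of MRPL42 are chr12:93467414-93467513 on the plus strand, those of MRPL47 chr3:179604639-179604689 and those of MRPS31 chr13:40771191-40771290, both on the minus strand. Capitals are the ZNF143 letters in the first pair and the ETS letters CCGGAAG in the last. MRPL50 and MRPL42 also hold the YY1 letters counted below, at 23 and 8 bases after the start and so outside the printed stretches.
MRPL50: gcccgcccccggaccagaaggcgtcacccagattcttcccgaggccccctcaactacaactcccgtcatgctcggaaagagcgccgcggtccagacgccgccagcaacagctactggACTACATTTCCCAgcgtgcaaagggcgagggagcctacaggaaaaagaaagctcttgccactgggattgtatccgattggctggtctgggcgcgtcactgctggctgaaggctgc
MRPL42: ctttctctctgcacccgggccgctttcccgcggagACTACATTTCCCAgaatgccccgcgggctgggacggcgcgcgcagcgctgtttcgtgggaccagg
MRPL47: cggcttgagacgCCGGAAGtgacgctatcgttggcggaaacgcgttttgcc
MRPS31: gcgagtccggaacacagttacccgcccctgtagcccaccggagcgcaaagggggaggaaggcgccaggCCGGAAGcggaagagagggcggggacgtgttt

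Of the 77 members, 68 had a promoter in the RefSeq table, counted as the 300 bases from 250 before to 50 after the first listed start and searched on both strands. CCGGAAG, the letters bound by GABP and other ETS factors, was in 28 of them (41.2%), against 10.7% of all 27305 promoters and 20.3% of the 9084 promoters of genes tested here. The consensus letters of YY1 were in 13 (19.1%), against 1.28% and 3.04%. The palindrome bound by NRF1 was in 1 (1.47%, against 1.36% and 2.37%), and the E-box CACGTG in 6 (8.82%, against 7.43% and 10.4%). The ZNF143 letters, searched after the printed promoters had been seen, were in 3 (4.41%, against 0.754% and 1.5%), those of MRPL50, MRPL42 and MRPS22. Of the 12 members that fell and had a promoter in the table, 4 held the ETS letters and 4 the YY1 letters. A match describes the letters only. The ETS and YY1 letters can overlap, and a promoter with both was counted for each.

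Levels of the members ranged widely for proteins that assemble into 1 particle. Their mean over the 5 libraries had a median of 66.4 FPKM, above 87.9% of the genes tested (median 11.4 FPKM), and 56 of 77 lay at or over 50 FPKM. MRPS24, the counterpart of a bacterial protein of the small subunit's head, stood highest, at 387, 409 and 384 FPKM in Cal27 and 403 and 445 in Cal27-shGRK2. Every library of MRPS24 was above every library of any other member, and its groups overlapped (log2 fold change 0.11 ± 0.06, limma adjusted p = 0.23). MRPS24 shares its strand with a readthrough transcript, URGCP-MRPS24, listed at 0.913 to 1.43 FPKM, so its level is uncertain to that extent.

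Next came MRPL11, a protein at the base of the ribosomal stalk, at 193, 207 and 196 FPKM in Cal27 and 181 and 210 in Cal27-shGRK2, where the Cal27-shGRK2 libraries lay on either side of all Cal27 libraries. MRPL33 was at 179, 177 and 195 FPKM in Cal27 and 197 and 206 in Cal27-shGRK2, with no overlap (log2 fold change 0.14 ± 0.06), but did not pass (limma adjusted p = 0.12). BABAM2 (listed as BRE), a DNA repair gene that overlaps MRPL33 on its strand, rose by 0.37 on the log2 scale. MRPL11 and MRPL33, neighbours in the order of levels, did not differ beyond the spread of their libraries.

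At the other end stood MRPS31, MRPL1 and MRPL50, with means of 12.6 FPKM for MRPS31 and a 32.3-fold distance from MRPS24. MRPL1, whose bacterial counterpart forms a mobile stalk of the large subunit, was at 15.6, 16.2 and 15.3 FPKM in Cal27 and 14.4 and 14.6 in Cal27-shGRK2. Its groups did not overlap, by a narrow gap, and it did not pass (log2 fold change -0.11 ± 0.07, limma adjusted p = 0.27). MRPL1 lay between MRPL50 and MRPS31 in every library.

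**Figure D2:**
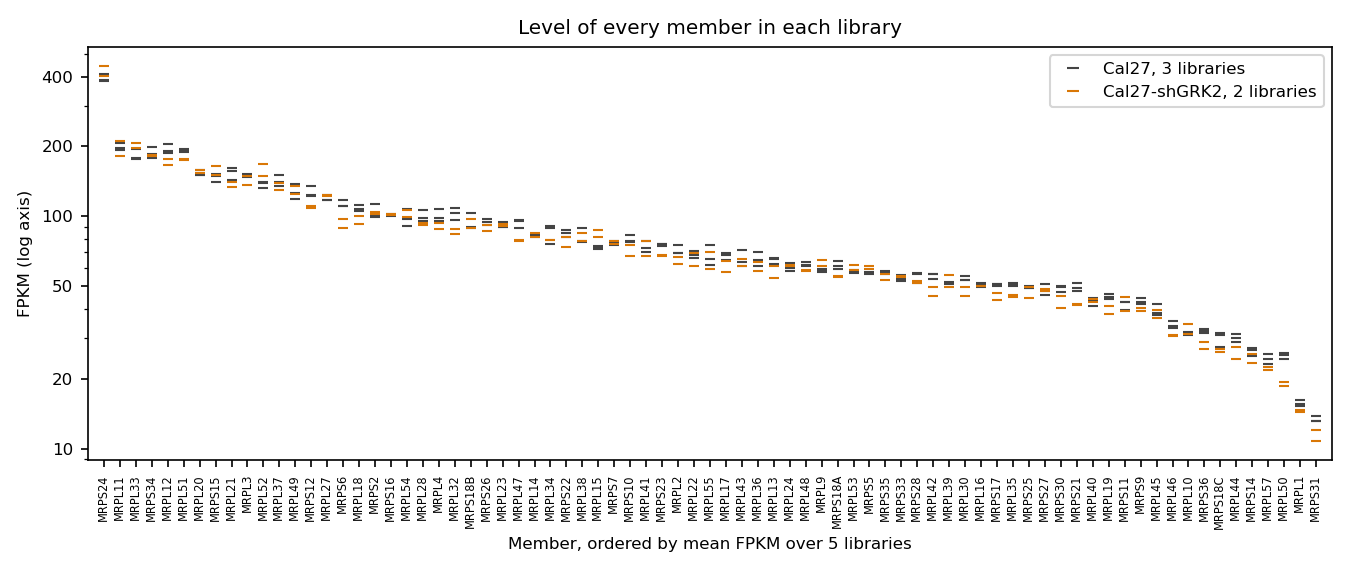
Each dash is the FPKM of 1 gene (log axis) in 1 library, grey for Cal27 and orange for Cal27-shGRK2, with the 77 genes ordered by mean level. MRPS24 stands alone at 406 FPKM, the curve falls gradually to MRPS31 at 12.6, and within a gene the libraries lie close together beside the distance between genes.

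Summed over the family, the level did not separate the groups. The members summed to 6373, 6658 and 6469 FPKM in Cal27 and 6096 and 6461 in Cal27-shGRK2, where the second Cal27-shGRK2 value lay among the Cal27 values. As a share of all FPKM in the table this was 1.04%, 1.03% and 1.04% in Cal27 and 1.03% and 1.05% in Cal27-shGRK2. The ratio of summed MRPL to summed MRPS levels was 1.70 to 1.72 in Cal27 and 1.70 and 1.71 in Cal27-shGRK2. The shared library was the lowest of the 5 for 43 members, and it also had the lowest total in the table, 590163 FPKM against 613330 to 644831 in the others. Cal27 replicate 1, with the highest total, was the highest of the 5 for 30 members. The part of these totals in the members' calls was not tested directly, and the scalings tried went both ways. With every library rescaled to a common total, 7 members were called lower and 6 higher. With median-of-ratios scaling 19 were lower and 2 higher, and with quantile normalization 17 lower and 4 higher. In that order the shares of members called were 16.9%, 27.3% and 27.3%. Of all genes in the same fits, 32.6%, 31.8% and 31.4% were called.

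Genes named MRPL held 7 falls, 2 rises and 39 members short of the threshold, at a median of -0.08 on the log2 scale. That was 18.8% called, against 29.6% of all genes tested, of which 14.6% fell and 15.0% rose. MRPL50 (ENSG00000136897.7, chromosome 9 from 101387633 to 101398614, minus strand, GENCODE version 29), a large-subunit protein with no bacterial counterpart, was at 25.2, 24.3 and 25.8 FPKM in Cal27. In Cal27-shGRK2 it was at 18.5 and 19.3 FPKM, below every Cal27 library, and its mean fell by 24.6% (log2 fold change -0.39 ± 0.07, SE, n = 3 and 2, limma adjusted p = 0.00033). Its call held in all 14 alternative settings, with adjusted p from 1.1e-05 to 0.011, and it was the only member for which that was so. ZNF189, whose start lies 233 bases away head to head, was at 6.42, 6.27 and 6.29 FPKM in Cal27 and 6.28 and 6.37 in Cal27-shGRK2, and its libraries overlapped (limma adjusted p = 1.0).

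MRPL47, a counterpart of a bacterial protein near the exit of the peptide tunnel, had 95.7, 89.2 and 96.2 FPKM in Cal27 and 77.9 and 79.0 in Cal27-shGRK2 (log2 fold change -0.25 ± 0.06, limma adjusted p = 0.0055). MRPL32, a protein that the mitochondrial m-AAA protease processes before it joins the ribosome, had 103, 96.7 and 109 FPKM and then 84.1 and 88.3 (-0.25 ± 0.06, adjusted p = 0.0088). MRPL42, found only in mitochondria, had 56.6, 53.8 and 56.5 FPKM and then 45.5 and 49.4 (-0.23 ± 0.06, adjusted p = 0.014). In all of these the Cal27-shGRK2 libraries lay below the Cal27 libraries, and the mean of MRPL47 fell by 16.3%. MRPL44, which has the fold of a double-strand ribonuclease, had 29.8, 31.0 and 28.8 FPKM and then 24.3 and 27.3 (-0.20 ± 0.07, adjusted p = 0.038). MRPL19, a counterpart of a bacterial protein at the interface of the subunits, had 45, 44 and 46.2 FPKM and then 37.9 and 40.9 (-0.19 ± 0.06, adjusted p = 0.035). MRPL12, the protein of the flexible stalk that recruits translation factors, had 191, 204 and 188 FPKM and then 167 and 177 (-0.17 ± 0.06, adjusted p = 0.047). None of these overlapped between groups, though the gap of MRPL44 and of MRPL12 was small.

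The calls in that group rested on few libraries and on the settings. Of the 14 alternative settings, the call held in 13 for MRPL47 and MRPL42 and in 12 for MRPL32. It held in 8 for MRPL19, 7 for MRPL44 and 5 for MRPL12. Without the shared library, the limma adjusted p was 0.055 for MRPL47, 0.10 for MRPL32, 0.17 for MRPL42, 0.35 for MRPL44 and 0.28 for both MRPL19 and MRPL12. The call of MRPL12 was also lost without any other library (adjusted p = 0.068, 0.086, 0.068 and 0.079 without Cal27 replicates 0, 1 and 2 and Cal27-shGRK2 replicate 2). That of MRPL44 was lost without Cal27 replicate 0 or 1 (0.056 and 0.075), that of MRPL19 without Cal27 replicate 0 or 2 (0.064 and 0.12), and that of MRPL32 without Cal27 replicate 2 (0.052).

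MRPL52 and MRPL15 rose. MRPL52, a protein found only in mitochondria, was at 139, 140 and 132 FPKM in Cal27 and 149 and 168 in Cal27-shGRK2 (log2 fold change 0.21 ± 0.07, limma adjusted p = 0.024). MRPL15, the counterpart of a bacterial large-subunit protein, was at 73.3, 74.7 and 72.2 FPKM and then 81.4 and 87.7 (0.20 ± 0.06, adjusted p = 0.022). Each call held in 11 of the 14 alternative settings. Both Cal27-shGRK2 libraries were above all Cal27 libraries, and replicate 2 was the higher. Without that library the adjusted p was 0.28 for MRPL52 and 0.20 for MRPL15, and without Cal27 replicate 2 it was 0.099 and 0.082.

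Among genes named MRPS, 6 fell, 0 rose and 23 did not pass, again with a median of -0.08. That was 20.7% called, against 29.6% of all genes tested, of which 14.6% fell and 15.0% rose. Of the 29, 21 (72.4%) lay below 0, against 50.9% of all genes. The most changed was MRPS6, a counterpart of a small-subunit protein of bacteria, at 111, 118 and 111 FPKM in Cal27 and 89.1 and 97.2 in Cal27-shGRK2 (log2 fold change -0.28 ± 0.06, limma adjusted p = 0.0033). SLC5A3, an inositol transporter gene that overlaps MRPS6 on its strand, had 6.49, 7.03 and 7.29 FPKM and then 6.79 and 6.83, with no such difference in level (-0.02 ± 0.08, adjusted p = 0.87). MRPS21, also with a bacterial counterpart, had 47.8, 49.0 and 51.4 FPKM and then 41.5 and 42.1 (-0.24 ± 0.06, adjusted p = 0.0094). MRPS31, specific to mitochondria, had 13.1, 13.1 and 13.8 FPKM and then 10.8 and 12 (-0.21 ± 0.07, adjusted p = 0.049). MRPS12, whose counterpart lies at the decoding centre, had 122, 135 and 123 FPKM and then 109 and 111 (-0.20 ± 0.06, adjusted p = 0.026). For each of the 4 ribosomal proteins the Cal27-shGRK2 libraries lay below all Cal27 libraries. SARS2, the mitochondrial seryl-tRNA synthetase gene that starts 181 bases from MRPS12 in the other direction, had 28.7, 30.2 and 27.6 FPKM and then 30.9 and 28.6, which overlapped.

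The other members that fell carry the MRPS name but do not belong to the small subunit. MRPS30, which sits in the large subunit, had 50.1, 49.4 and 47.4 FPKM in Cal27 and 40.2 and 45.3 in Cal27-shGRK2 (log2 fold change -0.19 ± 0.07, limma adjusted p = 0.041). MRPS36, now known as a component of the oxoglutarate dehydrogenase complex of the citric acid cycle, had 32.2, 31.4 and 32.6 FPKM and then 28.8 and 26.7 (-0.20 ± 0.06, adjusted p = 0.027). Neither overlapped between groups. Of the 14 alternative settings, the call held in 13 for MRPS6, 11 for MRPS21 and 10 for MRPS12. It held in 9 for MRPS36 and in 6 for MRPS30 and MRPS31. Without the shared Cal27-shGRK2 library the adjusted p was 0.071 for MRPS6, 0.077 for MRPS21, 0.36 for MRPS31, 0.15 for MRPS12 and 0.39 for MRPS30, and without Cal27-shGRK2 replicate 2 it was 0.053 for MRPS21, 0.054 for MRPS31, 0.096 for MRPS12 and 0.22 for MRPS36. Without Cal27 replicates 0, 1 and 2 in turn it was 0.060, 0.053 and 0.15 for MRPS31 and 0.092, 0.059 and 0.051 for MRPS30. MRPS36 was lost without Cal27 replicate 0 or 2 (0.054 and 0.090) and MRPS21 without Cal27 replicate 2 (0.054).

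**Figure D3:**
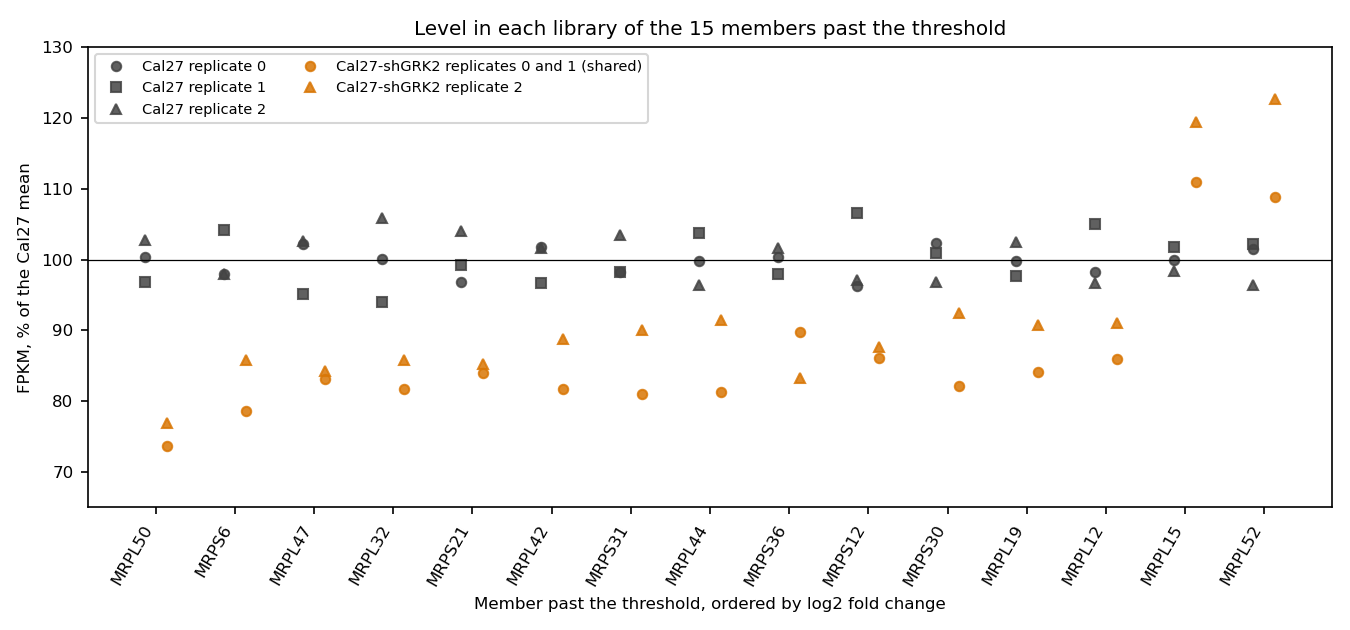
FPKM of the 15 members past the threshold in each library, as a percentage of the Cal27 mean of the gene (y axis), ordered by log2 fold change. In each gene the Cal27-shGRK2 points lie outside the range of the Cal27 points, furthest for MRPL50, and in the genes that fell, other than MRPS36, the shared library of replicates 0 and 1 is the lower of the pair.

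The MRPS18 paralogs, which descend from 1 ancestral protein and occupy different places, did not pass. MRPS18A, a large-subunit protein, had 59.3, 64.2 and 61.4 FPKM in Cal27 and 55.4 and 54.6 in Cal27-shGRK2 (log2 fold change -0.16 ± 0.06, limma adjusted p = 0.061). MRPS18C, which takes the place of the bacterial protein, had 31.3, 27.4 and 30.7 FPKM and then 26.7 and 26.0 (-0.17 ± 0.07, adjusted p = 0.090). Neither of these overlapped between groups. MRPS18B, another small-subunit protein, had 89.7, 103 and 89.3 FPKM and then 88.9 and 97.4, which overlapped (-0.01 ± 0.07, adjusted p = 0.92).

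By origin, the members with a bacterial counterpart had 4 falls and 1 rise among 29 in the large subunit (median -0.10) and 3 falls among 16 in the small subunit (median -0.09). Proteins without one had 4 falls and 1 rise among 19 in the large subunit, counting MRPS30 and MRPS18A there (median -0.04), and 1 fall among 10 in the small subunit (median -0.06). In that order the shares called were 17.2%, 18.8%, 26.3% and 10.0%, against 29.6% of all genes tested, of which 14.6% fell. Each class held a fall, and the classes were not compared by a test. They leave out MRPS36, MRPL55 and MRPL57. Mitoribosomal proteins that go by other symbols held 1 rise and no fall among 6. That was DAP3, a GTP-binding protein of the small subunit, at 120, 123 and 119 FPKM in Cal27 and 138 and 136 in Cal27-shGRK2 (0.18 ± 0.06, limma adjusted p = 0.025). The DAP3 call was lost without any library other than Cal27 replicate 1 (adjusted p = 0.073, 0.11, 0.13 and 0.087 without Cal27 replicates 0 and 2, the shared library and Cal27-shGRK2 replicate 2).

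The GC content of the longest protein-coding transcript, split into classes chosen after seeing the data, was known for all 77 members. The 13 that fell had a median of 44.9% and the 62 that did not pass 50.7%, where all genes that fell had 49.0% and all genes tested 48.8%. Among the 23 members under 45% GC, 7 fell and 0 rose, with a median log2 fold change of -0.15; all 4736 tested genes in that range had a median of -0.02, and 14.5% of them fell. Of the 33 members between 45% and 55% GC, 4 fell and 2 rose (median -0.03), against 14.3% and 16.0% of all tested genes there. Of the 21 at 55% or more, 2 fell and 0 rose (median -0.06), against 15.1% and 17.4%. Cal27 replicate 1 varied with GC over all genes: its median log2 ratio to the mean of the other Cal27 libraries was -0.03 under 45% GC and 0.11 at 55% or more, and over the members it was -0.04 and 0.12. The part of GC content in the members' calls was not tested.

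**Figure D4:**
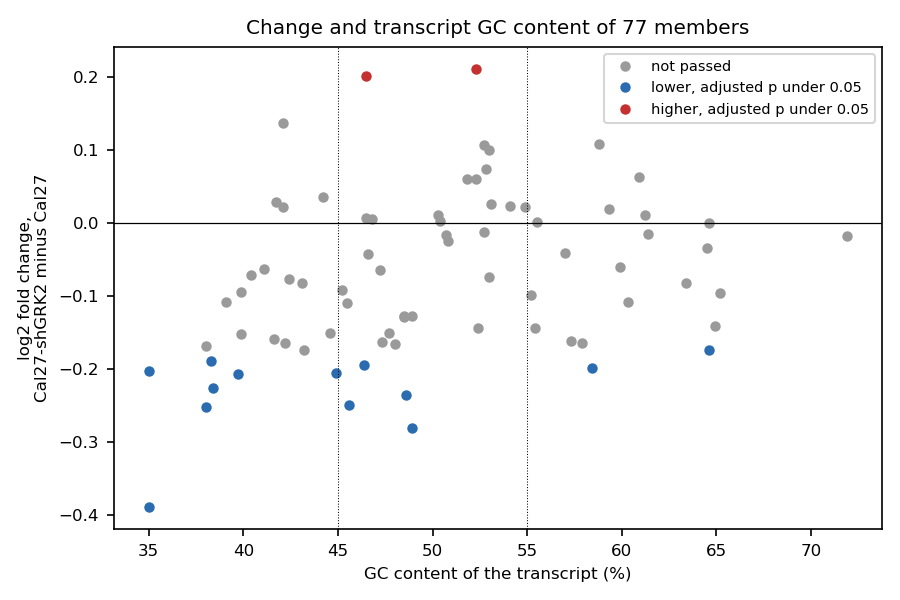
Log2 fold change (y axis) against the GC content of the longest protein-coding transcript (x axis, %) for the 77 members, with dotted lines at 45% and 55%. Members that fell lie mostly on the left, with MRPL50 at 35%, and include MRPS12 at 58.4% and MRPL12 at 64.6% on the right.

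Several members start close to another gene on the other strand. Annotated genes overlap 17 members on the same strand and 37 on the other. Reads of same-strand pairs may be shared. Those of pairs on opposite strands may be shared only if the processing did not use the strand, which is not known. Within 1000 bases, 22 of the 68 members with a listed start had such a head-to-head neighbour, and the neighbour was tested for 16. Of these neighbours 0 rose and 1 fell, where 15.0% of all genes tested rose and 14.6% fell. The 1 was TCP1, a chaperonin subunit 210 bases from MRPL18 (-0.19 ± 0.06, limma adjusted p = 0.030). MRPL18 itself was at -0.17 and did not pass (adjusted p = 0.057). For the 3 members that fell and had a tested neighbour, MRPL50, MRPL32 and MRPS12, the neighbours ZNF189, PSMA2 and SARS2 had log2 fold changes of 0.0, -0.11 and 0.04 and did not pass. MRPL46 and MRPS11 are neighbours of each other, 320 bases apart, at -0.14 and 0.01, and neither passed. Both are counted among the 16 tested neighbours.

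Other genes of mitochondrial gene expression were grouped by role. Of 91 tested genes in 6 further lists, 21 fell and 2 rose. The share called was smaller than the 29.6% of all genes, of which 14.6% fell and 15.0% rose. By direction, falls were a larger share of these lists than of all genes, and rises a smaller one. The difference was not tested. Of 16 genes of mitochondrial DNA maintenance, transcription and RNA processing, 7 fell and 0 rose (median -0.15), or 43.8% called. The falls were led by the poly(A) polymerase MTPAP (-0.39), the transcription factor TFB2M (-0.32) and TRMT10C (-0.32). TRMT10C is a subunit of the RNase that cuts transfer RNAs from the transcript. TFB2M was at 25.3, 23.4 and 24.6 FPKM in Cal27 and 18.8 and 20.1 in Cal27-shGRK2, below all Cal27 libraries. TFAM, which packages mitochondrial DNA and like POLRMT, NRF1 and GABPA was named after its values were seen, and the mitochondrial RNA polymerase POLRMT had log2 fold changes of -0.02 and -0.03 that did not pass. Without the shared Cal27-shGRK2 library the call of TRMT10C was lost (limma adjusted p = 0.080), and 3 of this list were called in place of 7. Without Cal27-shGRK2 replicate 2, 4 were called.

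Of 17 translation factors, 5 fell and 0 rose (median -0.16). That was 29.4% called, against 29.6% of all genes tested, of which 14.6% fell. The falls among the translation factors were led by MTRF1L (-0.31) and MTRF1 (-0.28), which release finished proteins, and SLIRP (-0.30), an RNA-binding partner of LRPPRC. SLIRP was at 171, 171 and 189 FPKM in Cal27 and 141 and 147 in Cal27-shGRK2. Of 24 assembly factors of the ribosome, 3 fell and 0 rose (median -0.05), or 12.5% called. The 3 were NSUN4 (-0.35), a methyltransferase of the small-subunit RNA, C1QBP (-0.22) and MPV17L2 (-0.19). Without the shared library the calls of MTRF1L, MTRF1, NSUN4, C1QBP and MPV17L2 were lost (limma adjusted p = 0.13, 0.17, 0.11, 0.23 and 0.26). That of MPV17L2 was also lost without Cal27 replicate 1 or 2 or Cal27-shGRK2 replicate 2 (0.065, 0.066 and 0.062).

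Of 20 mitochondrial aminoacyl-tRNA synthetases and related enzymes, which charge transfer RNAs, 3 fell and 1 rose (median 0.00). The share called was smaller than the 29.6% of all genes tested, of which 14.6% fell and 15.0% rose. The share that fell was near the background, and the share that rose was below it. EARS2 (-0.28), MARS2 (-0.27) and FARS2 (-0.22) fell, while CARS2 rose by 0.31, from 45.9, 53.5 and 51.5 FPKM in Cal27 to 63.1 and 61.5 in Cal27-shGRK2. Without the shared library the calls of MARS2, FARS2 and CARS2 were lost (limma adjusted p = 0.084, 0.12 and 0.057), and without Cal27-shGRK2 replicate 2 those of EARS2, MARS2 and FARS2 (0.054, 0.062 and 0.13). FARS2 was also lost without Cal27 replicate 2 (0.10).

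Among 8 tested regulators of nuclear genes for mitochondria, 3 fell and 0 rose. That was 37.5% called, against 29.6% of all genes tested, of which 14.6% fell. The nuclear receptor ESRRA was at 74.6, 83.7 and 79.2 FPKM in Cal27 and 55.9 and 60.9 in Cal27-shGRK2 (log2 fold change -0.43 ± 0.07, limma adjusted p = 0.00017). MYC, a transcription factor that drives ribosome production and growth, was at 88.7, 92.3 and 85.5 FPKM and then 65.7 and 67.4 (-0.41 ± 0.06, adjusted p = 1.0e-04). PPARGC1B, a coactivator of ESRRA, was low, at 2.75, 3.17 and 2.96 FPKM and then 1.77 and 1.79 (-0.51 ± 0.10, adjusted p = 0.00092). In all 3 genes both Cal27-shGRK2 libraries lay below all Cal27 libraries, and each call held in every alternative in which the gene was tested. NRF1 and GABPA, whose binding letters were searched above, had log2 fold changes of -0.07 and -0.05 that did not pass (adjusted p = 0.58 and 0.69).

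Beside the members, 14 of 79 cytosolic ribosomal protein genes fell and 1 rose (median -0.11), and 42 of 77 tested nuclear genes of the respiratory chain and ATP synthase fell and 0 rose (median -0.18). The shares called were 19.0% and 54.5%, against 19.5% of the mitoribosomal genes and 29.6% of all genes tested. The difference between these lists was not tested.

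**Figure D5:**
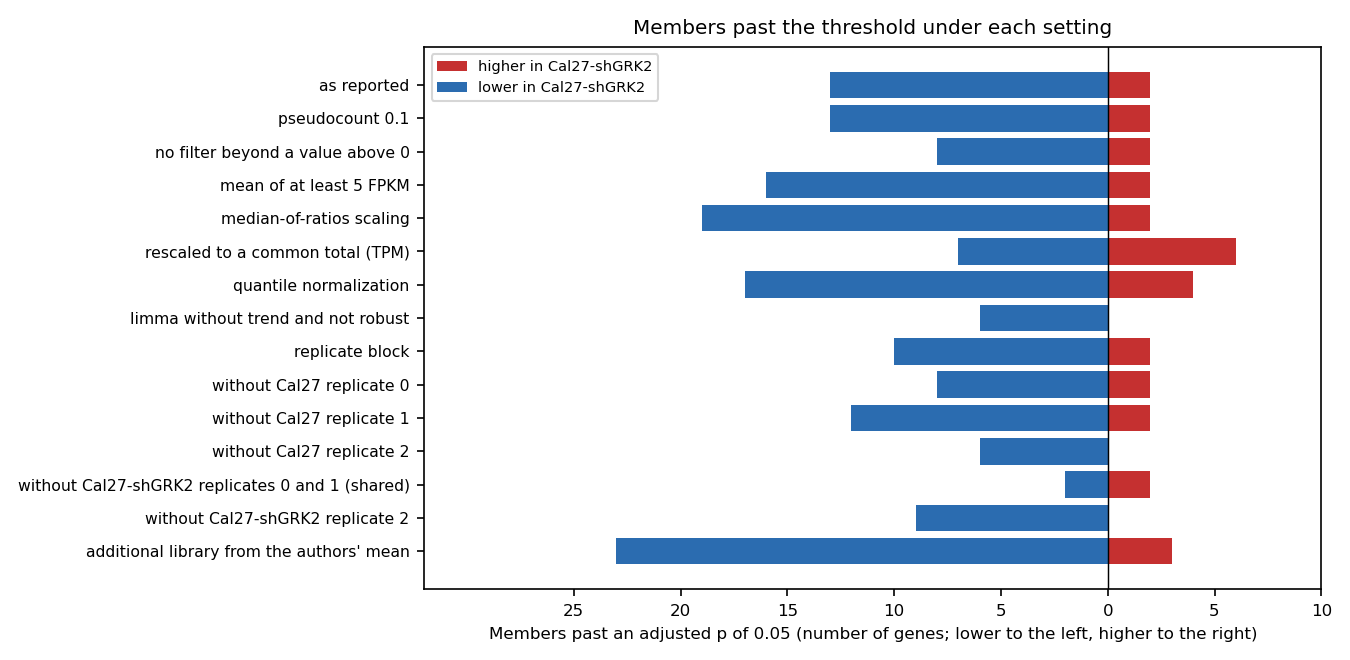
Number of the 77 members past an adjusted p of 0.05 (x axis, genes lower in Cal27-shGRK2 to the left in blue and genes higher to the right in red) as reported and under each alternative setting (y axis). The count lower goes from 2 without the shared Cal27-shGRK2 library to 23 with an additional library computed from the authors' mean.

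The count of members called moved widely with the libraries used. It was 10, 14 and 6 of 77 without Cal27 replicates 0, 1 and 2 (13.0%, 18.2% and 7.79%). Of all genes tested in those fits, 27.2%, 30.1% and 25.3% were called. Leaving out a Cal27-shGRK2 library leaves only 1 in that group. The median log2 fold change of the members was then -0.03 without the shared library and -0.13 without replicate 2. That of all genes was 0.02 and -0.03. The authors' Cal27 value was the mean of the 3 Cal27 columns within a relative tolerance of 1e-04 in 13362 of 13383 genes, but their Cal27-shGRK2 value matched the mean of its columns in 44. A further Cal27-shGRK2 library was therefore computed as 3 times that value minus the 2 distinct columns, an alternative chosen after seeing the data. With it, 23 members fell and 3 rose, against 35.7% of all genes called, and all 15 members called with 5 libraries were among them. MRPL33 was the further rise (log2 fold change 0.17, limma adjusted p = 0.024), and MRPL50 was at 19.5 FPKM in the computed library.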

How the data were processed

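Libraries were made from total RNA with a stranded mRNA kit, per the labels' protocols. The submitters' processing notes name Bowtie2 2.2.6, TopHat2 2.1.0 and Cuffdiff 2.2.1 with hg38, without their roles. The deposited table gives FPKM per library and per condition for 18678 genes, with 0 written as 0.0001, and so holds no depth or read counts. It also gives the authors' log2 fold change, their test score (a test statistic), and their p-values and q-values, per the file headers. The log2 fold change and q-value were used only where the authors' deposited table is named.

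Libraries were grouped by title, and identical columns were counted once, leaving 3 Cal27 and 2 Cal27-shGRK2 libraries and 3 residual degrees of freedom. Genes had to average 1 FPKM or more across these, and their log2(FPKM + 1) was fitted with limma 3.58.1 in R 4.3.3 (empirical Bayes with trend and robust settings). Two-sided p-values were adjusted by Benjamini-Hochberg across the 13377 genes tested, and the threshold was 0.05. Fold changes are on that scale, which understates changes of low genes, and ± gives the standard error. The fit was tested on simulated data. Gene positions and GC content came from GENCODE version 29 on hg38, and promoters from RefSeq on GRCh38.p14.

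The members and the lists were chosen with earlier results of these data known, and lists of cytosolic ribosomal and respiratory chain genes were made after the files were seen. Values in every library are given for GRK2, up to 8 members with the largest rise and 8 with the largest fall past the threshold, the 3 highest and 3 lowest by level, and MRPL12, MRPS12, MRPS30, MRPS36 and the MRPS18 paralogs. Other members that passed are given as well, and of each other list up to 3 per direction are named. Head-to-head and overlapping genes were named by position. Alternatives changed the pseudocount, filter, scaling, limma settings, block and libraries.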

Additional observations from a re-analysis of the deposited data

How the results depend on the processing

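With 3 and 2 libraries, counts of calls moved with most choices, and why was not tested beyond the construction of each setting. Of the 77 members, 15 passed as reported (2 higher, 13 lower). limma with neither the trend nor the robust setting gave 6 (0 higher, 6 lower), and the additional library computed from the authors' mean, chosen after seeing the data, gave 26 (23 lower). Those were 7.79% and 33.8% of the members, against 25.3% and 35.7% of all genes in the same fits. The scalings went both ways: rescaling to a common total gave 6 higher and 7 lower, quantile normalization 4 higher and 17 lower, and median-of-ratios scaling 2 higher and 19 lower. Of all genes in these fits, 32.6%, 31.4% and 31.8% were called. No filter gave 2 higher and 8 lower, or 13.0% of the members against 21.9% of all genes. Rescaling to a common total also moved the median of all genes from -0.005 to 0.05 and of the members from -0.08 to -0.03, and 65.3% of all calls were then higher, against 50.7%. Leaving out each library in turn gave 4 to 14 members (0 to 2 higher, 2 to 12 lower) with medians of -0.13 to -0.03, 2600 to 4028 of all genes, and 8 to 22 genes of the other lists. Each such fit that leaves 1 Cal27-shGRK2 library assumes that it varies like the others. By list, leaving out a library gave 0 to 1 for proteins under other symbols, 0 to 4 for assembly factors, 1 to 6 for translation factors, 1 to 4 for synthetases and 3 to 7 for mitochondrial DNA maintenance, transcription and RNA processing. Without both limma settings, proteins under other symbols numbered 0 and assembly factors 1. Assembly factors numbered 5 with a mean of at least 5 FPKM, and translation factors 8 with the computed library. Deviations of each library from its group mean were correlated between groups, at 0.08 and 0.017 for replicate numbers 0 and 2. With 2 Cal27-shGRK2 libraries their deviations mirror each other, and the shared library carries 2 numbers. Whether equal numbers pair the libraries could therefore not be decided. With the replicate number as a block, 12 members (2 higher, 10 lower) and 3960 genes passed, at 1 residual degree of freedom. MRPL11, at -0.03, was 0.03 after rescaling to a common total, 0.01 with the block, 0.01 without Cal27 replicate 1, and ran from -0.13 to 0.08 over the fits that leave out a library (0.08 without the shared Cal27-shGRK2 library). MRPS18B, at -0.01, was 0.04 after rescaling, 0.01 after quantile normalization, 0.06 with the block, 0.06 without Cal27 replicate 1 and 0.05 without the shared library. Neither passed in any of these. Read depth is unknown, so no limit of detection can be given.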
